A study of Mus musculus with 8 samples.

Results

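The aquaporins are a family of small membrane channel proteins, and 10 of their genes were followed in the mouse thyroid after an internal radiation dose. The members were taken by name, as the spots other than control spots whose gene name on the array was Aqp1, Aqp2, Aqp3, Aqp4, Aqp5, Aqp6, Aqp7, Aqp8, Aqp9 or Aqp11, which gave 15 of 55681 distinct probes, with 2 probes for 5 genes and 1 probe for the other 5. They were also chosen by measured values, namely their background marks and their quantile-normalized signals in exposed against control thyroids, so that these values are given as a description. Thyroid RNA came from female Balb/c mice aged 8 weeks, 4 controls (Ct1 to Ct4) and 4 animals exposed to pertechnetate, 99mTcO4- (Tc, animals S539, S588, S589 and S590), whose thyroids had absorbed 30 Gy and were taken 24 hours after the radioisotope. Pertechnetate carries technetium-99m, an emitter of gamma rays and of low-energy electrons, and enters thyroid cells through the sodium/iodide symporter. No allele or transgene is given for either group, and the sources differ on whether the controls were left untreated or given saline. Each array held thyroid RNA of 1 animal in 1 colour (Cy3), and the 8 arrays lay on 1 slide read in 1 scan, so that the place on the slide and the group cannot be told apart. The study asked how this exposure changes gene expression while the gland is stunned, that is, takes up less radioisotope.

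Aquaporins sit in membranes as groups of 4 subunits, each with its own pore, and let water follow an osmotic gradient. The water-selective channels include AQP1, found in capillary endothelium and red blood cells, AQP2, which vasopressin moves to the surface of kidney collecting duct cells, AQP4 of brain astrocytes and fast skeletal muscle fibres, and AQP5 of secretory glands. The aquaglyceroporins AQP3, AQP7 and AQP9 also pass glycerol, AQP3 in basolateral epithelial membranes, AQP7 in fat cells and AQP9 in liver. AQP6 lies in intracellular vesicles of acid-secreting kidney cells and conducts anions, AQP8 can pass ammonia and hydrogen peroxide, and AQP11 is found in the endoplasmic reticulum. In the thyroid, hydrogen peroxide is consumed at the apical membrane when iodide is bound to thyroglobulin.

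Aqp2, Aqp5 and Aqp6 are next to each other on chromosome 15. The array designer placed the Aqp2 probe at chr15:99412578-99413554 of mouse build mm9, an interval of 977 bases for a 60-base probe, the Aqp5 probes at chr15:99425138-99425197 and chr15:99424655-99424714, and the Aqp6 probes at chr15:99435849-99435908 and chr15:99434679-99434738. Aqp3 and Aqp7 both lie on chromosome 4, with probes at chr4:41039962-41040021 and chr4:40980431-40980490. Whether a probe falls in coding sequence or in a UTR was not annotated here for that build. The probe letters below are those of 4 members whose 60 bases hold at least 1 reading frame without a stop codon, shown because they are the letters by which the array reads these genes. Nothing in them is capitalised.
Aqp2: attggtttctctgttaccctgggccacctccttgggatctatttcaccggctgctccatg
Aqp5 probe 2: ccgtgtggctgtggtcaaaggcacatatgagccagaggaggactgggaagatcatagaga
Aqp9: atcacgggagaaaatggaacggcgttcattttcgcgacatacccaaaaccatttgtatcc
Aqp11 probe 2: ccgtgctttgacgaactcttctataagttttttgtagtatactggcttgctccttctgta

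No probe of a member shared a run of 16 bases with a probe of any other gene (0 of 15), and the longest run shared by the probes of 2 members was 11 bases.

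The 250 bases before the transcription start are printed for the 3 chromosome 15 neighbours and for Aqp3. Each of these genes except Aqp2 had a probe with all exposed arrays below all control arrays, as had 4.37% of all probes. On the second probe of Aqp5 and that of Aqp6 the groups overlapped. These stretches were picked on the values described below, and nothing about those values is read from them. They come from RefSeq on build GRCm38.p6, and capitals mark a match on either strand to TATAAA (the TATA box) or to TGACG (the core of the cAMP response element, CRE).
Aqp2 promoter, chr15:99578806-99579055, plus strand: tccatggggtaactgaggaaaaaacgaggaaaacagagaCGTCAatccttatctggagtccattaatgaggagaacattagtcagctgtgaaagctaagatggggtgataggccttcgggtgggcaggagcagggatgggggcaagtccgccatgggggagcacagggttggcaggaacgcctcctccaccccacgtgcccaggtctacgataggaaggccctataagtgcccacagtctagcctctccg
Aqp5 promoter, chr15:99590778-99591027, plus strand: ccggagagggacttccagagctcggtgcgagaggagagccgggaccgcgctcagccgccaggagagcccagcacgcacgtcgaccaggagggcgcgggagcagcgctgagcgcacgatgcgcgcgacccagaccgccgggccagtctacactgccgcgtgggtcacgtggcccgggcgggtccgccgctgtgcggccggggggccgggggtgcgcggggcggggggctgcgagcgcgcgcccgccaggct
Aqp6 promoter, chr15:99600950-99601199, plus strand: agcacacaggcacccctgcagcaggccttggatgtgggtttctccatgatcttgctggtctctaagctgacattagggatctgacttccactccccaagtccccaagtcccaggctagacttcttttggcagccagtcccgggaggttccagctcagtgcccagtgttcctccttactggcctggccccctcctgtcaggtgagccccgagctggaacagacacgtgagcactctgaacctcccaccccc
Aqp3 promoter, chr4:41098184-41098433, minus strand: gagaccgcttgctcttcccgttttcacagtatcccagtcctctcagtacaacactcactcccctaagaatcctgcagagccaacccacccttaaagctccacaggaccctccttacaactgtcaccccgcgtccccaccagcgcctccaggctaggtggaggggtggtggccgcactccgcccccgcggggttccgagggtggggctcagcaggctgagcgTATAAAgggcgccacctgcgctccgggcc

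TATAAA was found in 1 of 11 member windows, that of Aqp3, and in 12.4% of 32851 windows of the same length. TGACG was found in 1 of 11, that of Aqp2 on the opposite strand, and in 17.8% of all windows. The full CRE, TGACGTCA, which contains TGACG, was in 0 of 11 and in 1.55% of all. The letters CAAGTG, a core to which the thyroid factor NKX2-1 binds, were in 2 of 11 windows, both of Aqp7, and in 11.6% of all. These matches are letters in a window, and Aqp5 and Aqp6 held none of the 4 motifs there.

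On every array, 12 of the 15 probes, from 9 of the 10 genes, were well above background by the scanner software's own mark, against 55.7% of all probes. Aqp9 was well above background on none of the 8 arrays, and so was the dimmer probe of Aqp8. The dimmer probe of Aqp6 passed on none of the control arrays and on 1 exposed array. On the log2 scale used throughout (processed signal, quantile-normalized between arrays), Aqp9 lay between 2.75 and 3.33, under the lowest signal that counted as above background on any array, 4.41. Expression of Aqp9 was thus not detectable on these arrays, and no fold is given for it.

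The array data held 435 probes past limma's adjusted p of 0.05 over all 55681 probes (0.781%), and 0 of them were aquaporin probes. With 1 array left out, between 100 (without S590) and 485 (without Ct1) probes passed. At an unadjusted p under 0.05 limma gave 4 aquaporin probes, those of Aqp3, Aqp6 and both of Aqp5, and 6772 probes in all (12.2%). In the values that the authors deposited, the same fit called 955 probes (1.72%), and 1 of these was the brighter probe of Aqp6. Exposed arrays lay all below control arrays for 4 of the 15 member probes, against 4.37% of all probes, and all above for 0. Among these 4, Aqp3, Aqp5 probe 1 and Aqp6 probe 1 were above background and Aqp9 was not. Since the contrast entered the choice of the members, these shares are given side by side and nothing is read from them. The median log2 difference, exposed minus control, was -0.38 over the 12 probes above background, 9 of them negative and 3 positive, beside 0.01 over all probes.

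**Figure D1:**
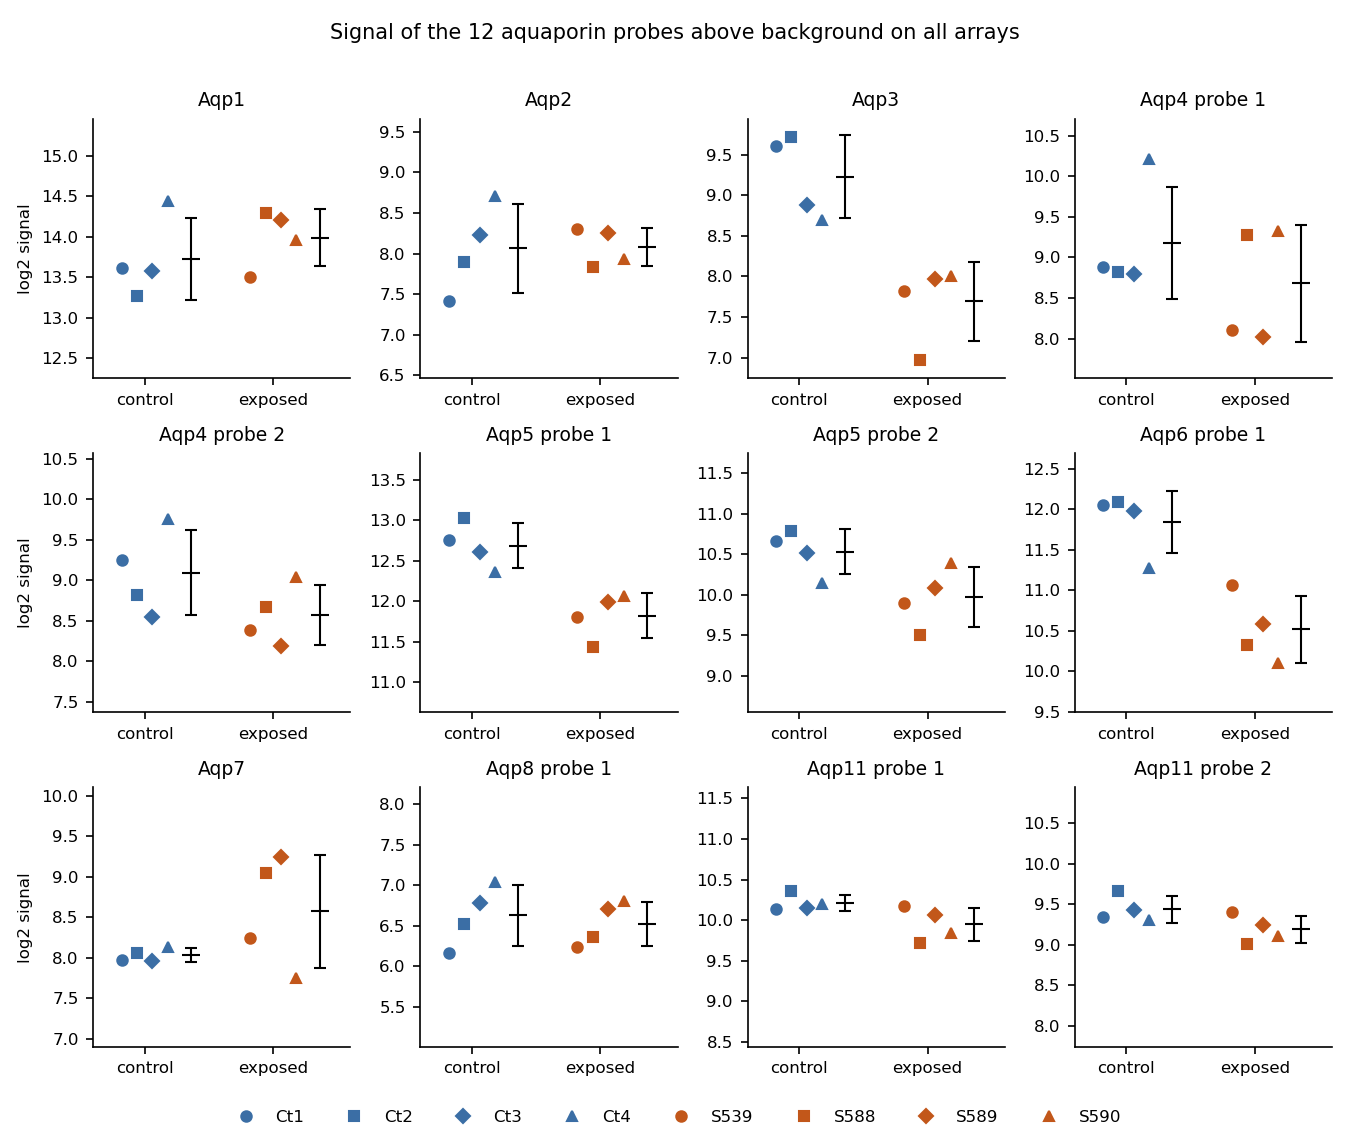
Log2 signal (y axis) of the 12 aquaporin probes above background, one panel per probe, with each control array in blue and each exposed array in orange, and the group mean with SD (n = 4) in black. Every panel spans the same height, so panels can be compared for spread but not for level. The colours separate without overlap for Aqp3, Aqp5 probe 1 and Aqp6 probe 1.

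Aqp3, the glycerol channel of basolateral epithelial membranes, had the widest gap. Its log2 signal was 9.61, 9.72, 8.89 and 8.70 in Ct1 to Ct4 and 7.83, 6.97, 7.97 and 8.00 in S539, S588, S589 and S590. All 4 exposed arrays were below all 4 controls, S588 was the lowest, and Ct1 and Ct2 stood above the other controls. The mean was 9.23 ± 0.51 (SD, n = 4) in controls and 7.69 ± 0.49 (SD, n = 4) in exposed thyroids, a log2 difference of -1.54 ± 0.33 (SE), or 2.90-fold lower. Limma's adjusted p was 0.104, which did not pass 0.05. In the deposited values, made without background subtraction, the difference was -1.13 ± 0.24 (SE) with an adjusted p of 0.0586 by the same limma fit.

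Aqp6, the vesicle anion channel of kidney intercalated cells, was measured by its brighter probe at 12.05, 12.08, 11.97 and 11.27 in controls and at 11.06, 10.32, 10.58 and 10.10 in exposed thyroids. Every exposed array was below every control, with Ct4 the lowest control and S539 the highest exposed array, 0.21 apart. The log2 difference was -1.33 ± 0.27 (SE), from 11.84 ± 0.38 to 10.52 ± 0.41 (SD, n = 4 each), or 2.51-fold lower. Limma's adjusted p was 0.0919 on the processed signals and 0.0348 on the deposited values, where the difference was -1.29 ± 0.24 (SE). The size was alike on both scales and the side of the threshold was not. The second Aqp6 probe, 1 of the 3 that were not above background throughout, gave 2.96 to 5.34 in controls and 2.96 to 4.65 in exposed thyroids and carries no measurement of the gene.

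Aqp5, the water channel of gland secretory cells, had 2 probes above background. The brighter gave 12.75, 13.03, 12.61 and 12.36 in controls and 11.81, 11.43, 11.99 and 12.06 in exposed thyroids. Its exposed arrays were all below the controls, S588 again the lowest and Ct2 again the highest. The log2 difference was -0.87 ± 0.20 (SE), 1.82-fold lower, with a limma adjusted p of 0.139, and -0.80 ± 0.18 (SE) with 0.066 in the deposited values. The dimmer probe gave 10.67, 10.79, 10.51 and 10.15 in controls and 9.90, 9.51, 10.08 and 10.39 in exposed thyroids. There the groups overlapped, since S590 was above Ct4, and the difference was -0.56 ± 0.23 (SE) with a limma adjusted p of 0.387. Both probes of Aqp5 therefore pointed the same way, and neither passed the threshold.

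**Figure D2:**
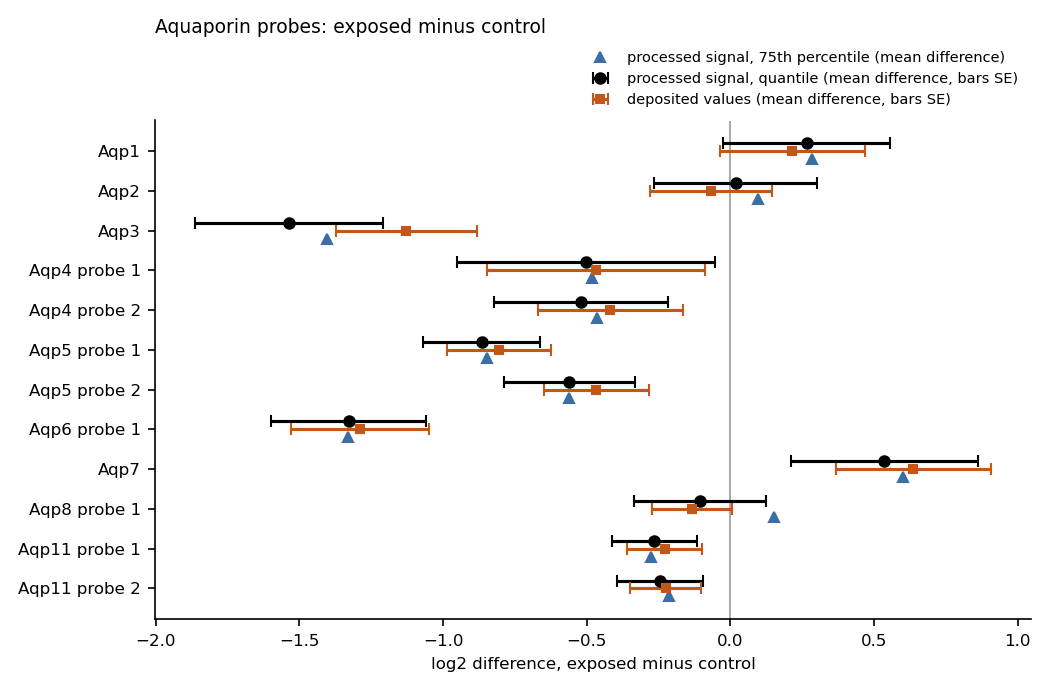
Log2 difference, exposed minus control (x axis), of the 12 aquaporin probes above background, with the processed signal after quantile normalization (black, bars SE), the deposited values (orange, bars SE) and the processed signal scaled to the 75th percentile (blue). Aqp3 moved from -1.54 to -1.13 between the first and the second, and Aqp8 probe 1 changed sign with the third.

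Aqp2, the vasopressin-controlled water channel, comes before Aqp5 and Aqp6 in the same row, and its groups overlapped. Its signal was 7.41, 7.90, 8.23 and 8.72 in controls and 8.30, 7.83, 8.25 and 7.94 in exposed thyroids. The exposed arrays lay inside the range of the controls, and the log2 difference was 0.02 ± 0.28 (SE) by limma, adjusted p 0.984. Its sign turned in the deposited values (-0.07), so no direction is given for this channel.

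The genes around the row were read in the order of the RefSeq table. Nckap5l and Bcdin3d, upstream of Aqp2, had log2 differences of -0.01 and 0.01, and Faim2, a neuronal inhibitor of Fas-mediated death between them and Aqp2, had -0.45. Beyond Aqp6 were Racgap1, a cytokinesis regulator (-0.85), Asic1, an acid-sensing ion channel (-0.70), and Smarcd1, a chromatin remodelling subunit (-0.40). None of the 6 passed limma's threshold, with adjusted p from 0.306 for Asic1 to 0.981 for Nckap5l, and in all 6 the groups overlapped. Racgap1 was 9.62 in Ct1 and 9.55 in Ct2 against 7.80 to 8.07 on the other 6 arrays.

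Aqp1, the water channel of endothelium and red cells, was bright on all arrays, at 13.61, 13.27, 13.57 and 14.44 in controls and 13.50, 14.29, 14.21 and 13.96 in exposed thyroids. Ct4 was the highest of all 8 and the groups overlapped. Its log2 difference was 0.27 ± 0.29 (SE), limma adjusted p 0.730. It was 0.11 without Ct2, 0.16 without S588, 0.51 without Ct4 and 0.43 without S539. The 12 endothelial markers had a median log2 difference of 0.05 with none called (0 of 12), and the 9 red cell markers one of 0.39 with 0 called.

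Aqp4, the channel of astrocytes and fast muscle fibres, had 2 probes, on chromosome 18 at chr18:15547951-15548010 and chr18:15551364-15551423. Probe 1 gave 8.89, 8.83, 8.80 and 10.21 in controls and 8.10, 9.28, 8.01 and 9.32 in exposed thyroids. Probe 2 gave 9.25, 8.82, 8.55 and 9.75 in controls and 8.39, 8.68, 8.19 and 9.04 in exposed thyroids. On both probes Ct4 was highest and S539 and S589 were lowest, and the groups overlapped. The log2 differences were -0.50 ± 0.45 and -0.52 ± 0.30 (SE), with limma adjusted p of 0.673 and 0.523, and without Ct4 they were -0.15 and -0.30. Probe 1 had -0.31 without S539 and -0.28 without S589, but -0.71 without S588 and -0.72 without S590.

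The score of 12 skeletal muscle markers, the mean log2 deviation of each gene from its own mean over the 8 arrays, was 0.83, 0.19, -0.22 and 1.29 in Ct1 to Ct4 and -1.55, 0.09, -1.34 and 0.71 in S539, S588, S589 and S590. The order of the arrays by this score was that of Aqp4 probe 2 except that S539 and S589 changed places. All 12 markers, among them Acta1 and Ckm, were above background on every array, and their median log2 difference was -1.12 with 0 called. The part of muscle in the Aqp4 values was not tested. In such tissue RNA, fewer cells of a type and less RNA per cell cannot be told apart.

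Aqp7, the glycerol channel of fat cells, was 7.98, 8.06, 7.97 and 8.14 in controls and 8.24, 9.05, 9.25 and 7.76 in exposed thyroids. S588 and S589 were above all other arrays and S590 below all of them, so the exposed group enclosed the controls, and the log2 difference was 0.54 ± 0.33 (SE), limma adjusted p 0.538. It was 0.31 without S589 and 0.81 without S590. The SD was 0.08 in controls and 0.70 in exposed thyroids. The score of 12 adipocyte markers, 11 of them above background throughout, was 0.72 in S589, 0.20 in S588 and -0.53 in S590, the first 2 above and the last below all other arrays. It was 0.03 in S539 and ran from -0.44 to 0.08 in controls. The part of fat in the Aqp7 values was not tested.

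Aqp8 and Aqp11, like Aqp2, had small log2 differences, and their groups overlapped. Aqp8 probe 1, near the lower end of the measured signals, was 6.17, 6.53, 6.79 and 7.05 in controls and 6.24, 6.36, 6.71 and 6.80 in exposed thyroids, with a log2 difference of -0.11 ± 0.23 (SE) and a limma adjusted p of 0.876. Scaling each array to its 75th percentile turned the sign (0.15), and that scaling moved the median of all probes to 0.16. Aqp11, the endoplasmic reticulum member, was 10.14, 10.36, 10.15 and 10.20 in controls and 10.17, 9.71, 10.06 and 9.84 in exposed thyroids on probe 1. Only S539 on that probe was inside the control range, and probe 2 gave the same picture with S539 alone inside the range of 9.31 to 9.67. The log2 differences were -0.27 ± 0.15 and -0.25 ± 0.15 (SE), with limma adjusted p of 0.508 and 0.538.

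**Figure D3:**
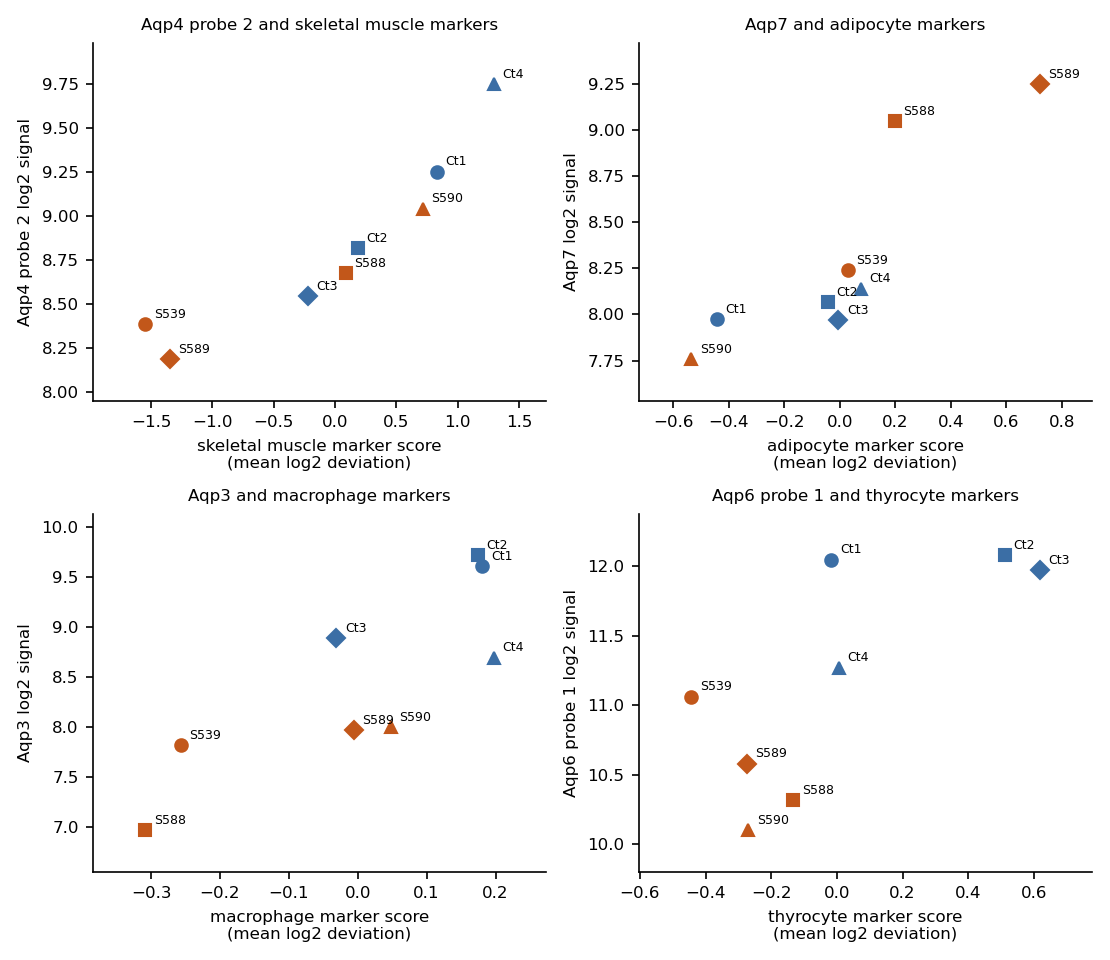
Log2 signal of Aqp4 probe 2, Aqp7, Aqp3 and Aqp6 probe 1 (y axes) against the score of the skeletal muscle, adipocyte, macrophage and thyrocyte markers (x axes, mean log2 deviation), with controls in blue and exposed arrays in orange. The pairs were picked after the values were seen. Ct4 is at the top right for Aqp4 and muscle, and S589 for Aqp7 and fat.

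The tissue was checked on its own markers. All but Slc26a4 of the 11 thyrocyte markers were above background on every array, with thyroglobulin (Tg) at a mean log2 signal of 18.85 in controls and 18.89 in exposed thyroids. The parathyroid hormone gene Pth (18.30 in controls) and the muscle genes were also bright, so that transcripts of neighbouring tissues were present beside those of thyroid cells. The calcitonin gene Calca of C cells, which are cells of the thyroid itself, was bright too (17.33 in controls). The thyrocyte score lay between -0.02 and 0.62 in controls and between -0.44 and -0.13 in exposed thyroids, without overlap. Gene by gene, exposed arrays lay all below controls for 2 of the 11, Dio1 and Duoxa2, beside 4.37% of all probes. In the other thyrocyte markers the groups overlapped. Of the 11 genes 1 passed limma's threshold, the deiodinase Dio1 (-2.46 ± 0.30 SE, adjusted p 0.0153), which was also furthest from 0. The score leans on Dio1, so its separation is not a trait of the list as a whole. The thyroid factors Pax8 and Nkx2-1 had -0.58 and -0.09 with limma adjusted p of 0.437 and 0.890.

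Scores of other cells were read beside Aqp3 and Aqp5. The macrophage score, from 10 genes of which 9 were above background throughout, was -0.03 to 0.20 in controls and -0.31 to 0.05 in exposed thyroids, with S588 the lowest as in Aqp3 and Aqp5. Exposed arrays lay all below controls for 3 of its genes, Csf1r, Adgre1 and Fcgr1, beside 4.37% of all probes, and 0 passed limma's threshold. In the other macrophage genes the groups overlapped, and Cd68 (0.63) and Mertk (0.29) had positive log2 differences. The median of the list was -0.42. S588 also stood out in the neutrophil score, from 9 genes of which 8 were above background throughout. That score was 2.67 in S588 and -0.71 to 0.30 on the other arrays, with 0 genes called. Thymocyte and T cell markers, 5 of 11 above background throughout, scored 3.19 in Ct1 and 2.24 in Ct2, against -1.45 to -0.10 on the other 6 arrays. Among 13 marker lists, Dio1 and Foxj1, a factor of ciliated airway cells (log2 difference 2.49, limma adjusted p 0.0213), were the 2 genes called. The list of stratified and airway epithelium that holds Foxj1 had a median of -0.26, with Krt5 the lowest at -1.66 and Foxj1 the highest. With Ct1 and Ct2 left out together, Aqp3 had a log2 difference of -1.10, Aqp5 probe 1 of -0.66 and Aqp6 probe 1 of -1.11, with limma adjusted p of 0.280, 0.321 and 0.282 over all probes. The part of these cells in the aquaporin values was not tested.

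Over the 8 arrays Aqp3 and Aqp5 probe 1 had a Pearson r of 0.987 with each other, and Aqp3 and Aqp6 probe 1 one of 0.879. Among 14993 genes with a RefSeq probe above background on all arrays, the pattern most like that of Aqp3 over the 8 arrays was that of Itgax, the integrin subunit CD11c of dendritic cells and some macrophages (Pearson r = 0.992, Spearman rho = 0.976). Itgax was also second for Aqp5 probe 1 (r = 0.989), after Zfp90 (r = 0.994). For Aqp6 probe 1 the nearest were Eif4a3 (r = 0.982), an exon junction helicase, and Rassf4 (r = 0.978). Part of each r is the shared gap between the groups, and after subtraction of group means r was 0.966 for Itgax with Aqp3 and 0.916 for Eif4a3 with Aqp6. These were the highest of many correlations over the same arrays, and no test applies to them.

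The genes nearest to the other members differed from member to member. Aqp4 probe 2 was nearest to Wfdc1 (r = 0.991) and Fxyd6 (r = 0.988), and Aqp7 to Gchfr (r = 0.991). Aqp1 was nearest to Ndufa6 (r = 0.946), a subunit of respiratory complex I. None of the genes named here for likeness passed limma's threshold, the lowest adjusted p being 0.101 for Itgax.

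**Figure D4:**
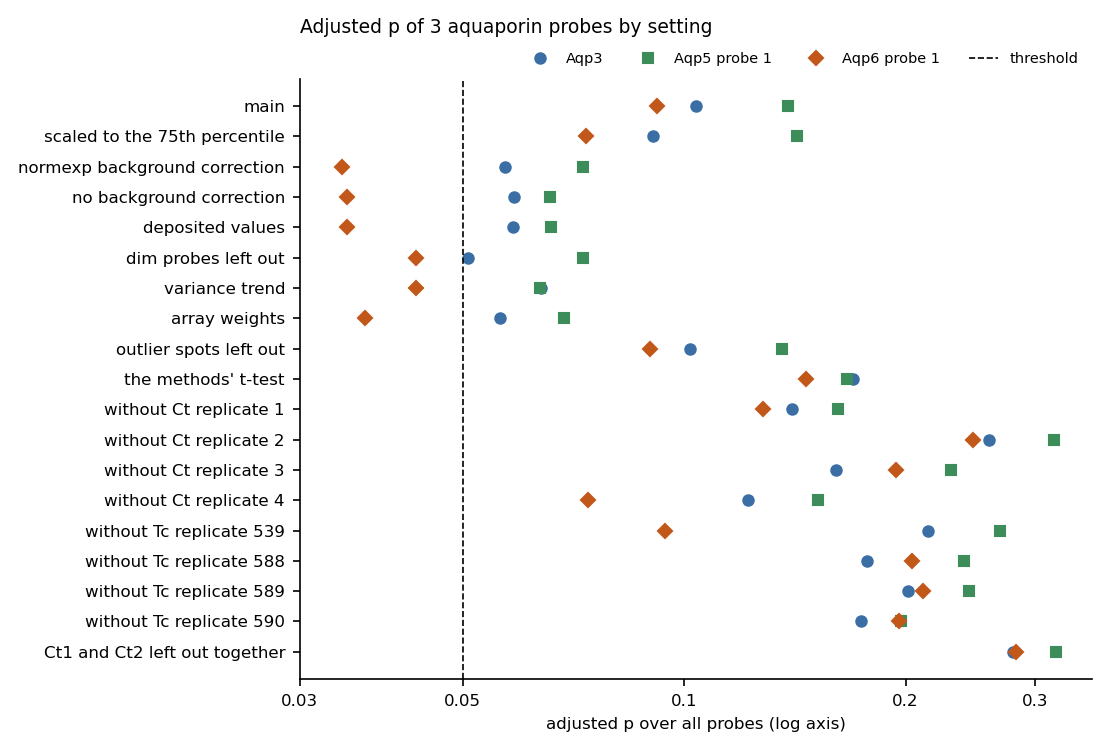
Adjusted p over all probes (x axis, log scale) of Aqp3, Aqp5 probe 1 and Aqp6 probe 1 under each setting (y axis), with the threshold of 0.05 dashed. Aqp6 is below the threshold in 6 settings, Aqp3 comes to 0.0508 and Aqp5 to 0.0636 at the least.

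The partners of the aquaporins were taken from 10 lists with 137 genes, of which 124 were above background on all arrays. Limma called 3 of them, all higher in exposed thyroids, beside 1.2% of the 21026 genes with a RefSeq probe. Aqp2 is known to be moved to the cell surface by vasopressin and cAMP. Of 17 genes of that route, 0 were called and the median log2 difference was -0.04. The vasopressin receptor genes Avpr2, Avpr1a and Avpr1b were above background on 1, 0 and 1 of 8 arrays, so that these receptors lay at background on nearly all arrays. Among its genes above background on all arrays, the largest log2 differences were those of the phosphodiesterase gene Pde4d (-0.62) and the kinase subunit gene Prkar2a (-0.53), with limma adjusted p of 0.616 and 0.512.

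Vesicle traffic genes numbered 19, with 0 called and a median of 0.05. Snap23 (0.87) and Rab11fip2 (-0.77), which act in membrane fusion and in recycling, had the largest differences, with limma adjusted p of 0.470 and 0.488. The anchoring complex of AQP4 had 13 genes, 0 called and a median of -0.20. The muscle sarcoglycan gene Sgca had a log2 difference of -0.98 (adjusted p 0.610 by limma), and it was highest in Ct4 and low in S539 and S589, as Aqp4 was.

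Glycerol handling, the route that AQP3, AQP7 and AQP9 serve, had 15 genes with 0 called and a median of 0.41. Pck1, whose enzyme feeds the making of the glycerol backbone, was 13.07, 13.37, 13.81 and 13.65 in controls and 13.71, 14.86, 15.62 and 13.60 in exposed thyroids. S588 and S589 were its highest arrays, as they were for Aqp7. Its log2 difference was 0.97 ± 0.46 (SE), limma adjusted p 0.445, and that of the glycerol kinase gene Gyk was 0.78 ± 0.33 (SE), 0.402.

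Tonicity genes, which respond to water balance, had 12 members with 1 called. Slc5a3, the sodium/myo-inositol cotransporter that loads cells with an osmolyte, rose. It was 10.12, 10.14, 10.64 and 10.24 in controls and 12.49, 12.22, 12.40 and 12.35 in exposed thyroids. The groups were far apart, with a log2 difference of 2.08 ± 0.16 (SE) and a limma adjusted p of 0.0032. The osmolyte transporter gene Slc6a12, controlled like Slc5a3 by the factor encoded by Nfat5, had -1.34 ± 0.34 (SE) with an adjusted p of 0.167 by limma, and Nfat5 itself had 0.10. The list as a whole had a median of -0.03.

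Proton pump and intercalated cell genes, the setting in which AQP6 is known from the kidney, had 20 members with 1 called. Atp6v1d, a subunit of the vacuolar proton pump, rose from 13.70 ± 0.09 to 14.70 ± 0.21 (SD, n = 4 each), a log2 difference of 1.00 ± 0.15 (SE) with a limma adjusted p of 0.0302. The list's median was -0.16, and its score was 0.02 to 0.27 in controls and -0.16 to -0.12 in exposed thyroids, without overlap. Gene by gene, exposed arrays lay all below controls for 2 of the 20, Atp6v0a4 and Atp6v1g3, beside 4.37% of all probes. They lay all above for 1, Atp6v1d, a share not counted over all probes. Groups overlapped in the other genes. Atp6v1g3 was above background on 2 of 8 arrays. The score leans on Atp6v0a4 and Atp6v1g3, so its separation is not a trait of the list as a whole. The intercalated cell subunit Atp6v0a4, above background on 7 of 8 arrays, was furthest from 0 in the list. Its log2 difference was -1.86 ± 0.42 (SE), limma adjusted p 0.119, and -1.26 with 0.0270 in the deposited values. Other genes of the list went both ways, with Foxi1 at -0.02, Slc4a9 at 0.19, Slc4a1 at 0.46 and Atp6v0d2 at -1.04.

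Of 15 genes that make or remove hydrogen peroxide, which AQP3 and AQP8 can pass, 1 was called. Duoxa1, the maturation factor of the peroxide-making oxidase DUOX1, rose. It was 11.28, 11.21, 10.94 and 11.04 in controls and 13.52, 13.27, 13.49 and 13.75 in exposed thyroids, a log2 difference of 2.39 ± 0.15 (SE) with a limma adjusted p of 0.00171. Its thyroid counterpart Duoxa2 had -1.05 ± 0.22 (SE), adjusted p 0.100 by limma. In the deposited values Duoxa2 passed (-0.95, 0.0467), and 3 genes of the list were called higher and 1 lower. The median of the list was 0.00. Its score was -0.19 to -0.03 in controls and 0.04 to 0.21 in exposed thyroids, without overlap. Gene by gene, exposed arrays lay all below controls for 1 of the 15, beside 4.37% of all probes. They lay all above for 3, and the share of all probes lying all above was not counted. In the other genes of the list the groups overlapped. The score leans on Duoxa1, so its separation is not a trait of the list as a whole.

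Among 22 genes of epithelial ion transport 0 were called, with a median of -0.01. Scnn1a, a sodium channel subunit (1.39 ± 0.26 SE, adjusted p 0.0761), and Ano1, an apical chloride channel that also passes iodide (-1.09 ± 0.23 SE, 0.104), were the furthest from 0 in limma's fit, and both passed it in the deposited values (0.0125 and 0.028). In the deposited values 2 genes of this list were called higher and 1 lower. The urea transporters numbered 2, of which Slc14a2 was above background throughout, with a log2 difference of 0.31 ± 0.33 (SE). The remaining family members on the array, Mip and Aqp12, were above background on 0 and 2 of the 8 arrays.

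**Figure D5:**
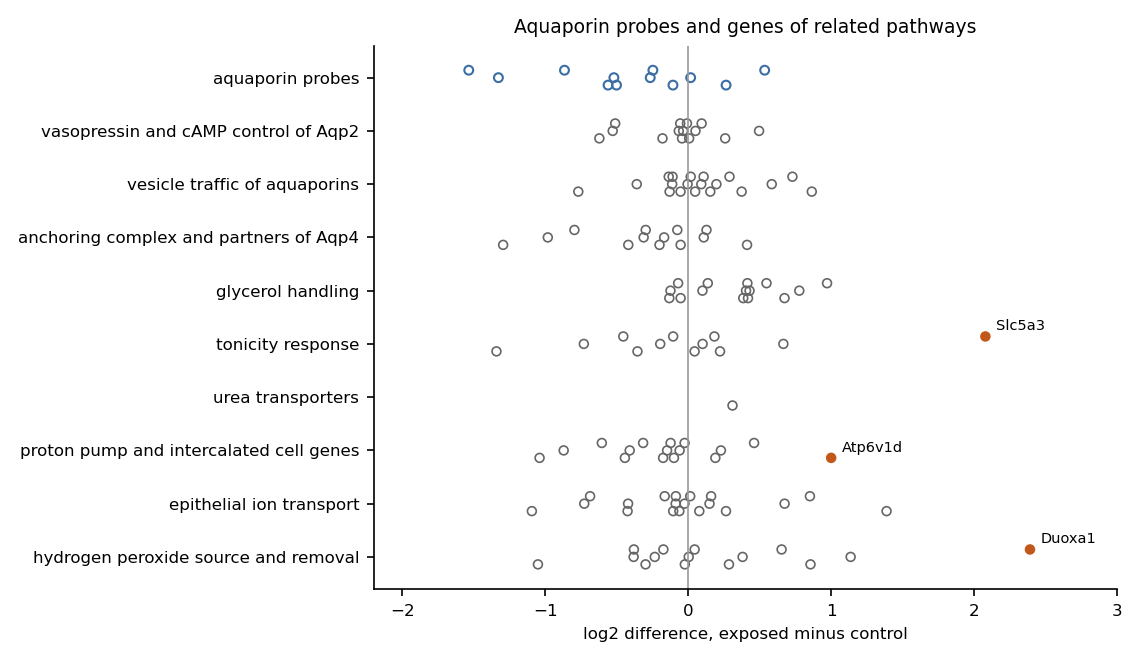
Log2 difference, exposed minus control (x axis), of the 12 aquaporin probes (blue, top row) and of the genes of 9 related lists above background on all arrays (open circles), with the 3 genes past limma's threshold filled and named. Slc5a3, Atp6v1d and Duoxa1 lie to the right of 0, while the aquaporin probes furthest from 0 lie to the left.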

How the data were processed

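Total RNA from the thyroids of 4 control and 4 exposed mice was labelled with Cy3 and hybridised to Agilent SurePrint G3 mouse arrays, and spot intensity was read with Feature Extraction 10.7.3.1, per the file headers. The authors' deposited log2 values equal the quantile-normalized log2 of the median signal, with no background subtraction, to within 0.0378 (median difference 0.0113). The background-subtracted, detrended processed intensity deposited in the scanner files was used here. Its log2 was quantile-normalized over 59305 spots that are not control spots, spots of a probe were averaged, and 55681 probes entered limma 3.58.1 (lmFit, eBayes, R 4.3.3) with Benjamini-Hochberg adjustment, after the methods, which name limma, quantile normalization, a B-test (not used here) and an adjusted p of 0.05 for the arrays. The t-test among the alternatives is the one they give for comparisons of 2 conditions in general, and its Benjamini-Hochberg adjustment was added here. The fits were tested on simulated data. Controls and exposed animals were grouped from the sample names. Above background means the software's mark for a signal well above background on all 8 arrays. Array by array, the mark was set for 60.5% to 75.0% of spots on control and 70.9% to 77.3% on exposed arrays, and 0 spots were saturated. Precision is set by there being 4 arrays a group. A gene was read on its brightest RefSeq probe (21026 genes), names coming from the RefSeq table (27220 of 27752 probes and all 15 member accessions matched). The members and gene lists were chosen with earlier results of these data known. Named were every member probe, list genes past the threshold or otherwise the 2 of each list furthest from 0, defining markers, chromosome 15 neighbours and the 2 most alike genes, of which some are not reported here. Avpr2, Avpr1a, Avpr1b, Nfat5, Slc6a12, Atp6v0a4, Atp6v1g3, Foxi1, Slc4a9, Slc4a1, Atp6v0d2, Duoxa2, Cd68, Mertk and Krt5 were named after their values were seen. Alternatives were other scalings, background corrections, filters, weights and tests, and arrays left out.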

Additional observations from a re-analysis of the deposited data

Results flagged for a closer look

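In 56 groups of 4 arrays (the 15 aquaporin probes and 13 marker scores in both groups), 5 had a single array far from the others of its group by Dixon's test, where chance gives about 2.8 at 1 in 20 groups. Ct4 stood apart for Aqp4 probe 1, at 10.21 against 8.80 to 8.89 on the other controls, and it also had the highest skeletal muscle score, 1.29. For Aqp6 probe 1, Ct4 was at 11.27 against 11.97 to 12.08. With Ct4 left out, the Aqp6 difference was -1.52 by limma, adjusted p 0.0741, and the Aqp4 probe 1 difference was -0.15. The macrophage score of Ct3 was -0.031, below 0.17 to 0.20 on the other controls. Both other cases were below background, Aqp8 probe 2 in Ct4 (4.64) and Aqp9 in Ct1 (3.33). No cause was tested for any of them.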

How the results depend on the processing

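Over 267 values of single aquaporin probes under 18 settings, 246 kept their direction and their side of the threshold, 6 newly passed it and 15 turned sign. All 6 were Aqp6 probe 1: normexp -1.32, no background correction -1.29, deposited values -1.29, dim probes left out -1.33, variance trend -1.33 and array weights -1.43, with limma adjusted p from 0.0342 to 0.0432. So 1 aquaporin probe was called there, and 3 by the methods' t-test unadjusted. Calls over all probes were 856 with normexp, 962 with no background correction, 955 in the deposited values, 733 without dim probes, 744 with a variance trend, 959 with array weights, 289 by the methods' t-test after Benjamini-Hochberg adjustment and 6962 before it. Leaving out 1 array gave 0 aquaporin calls each time, 100 to 485 calls over all probes (485 without Ct1, 100 without S590) and a median aquaporin difference of -0.45 to -0.28, the latter without Ct4. Without Ct1 and Ct2, a choice made after seeing the data, 83 probes were called, and Aqp1 (-0.021) and Aqp2 (-0.39) turned. Aqp2 also turned with normexp (-0.022), no background correction (-0.068) and deposited values (-0.068), and ran from -0.20 to 0.23 with single arrays left out. Aqp8 probe 1 turned with the 75th percentile (0.15) and without Ct4 (0.031, range from -0.26), and, below background, Aqp6 probe 2 with normexp (0.025) and Aqp9 with normexp (0.081), no correction (0.097) and deposited values (0.098). Genes called over the pathway and marker lists numbered 14 in the deposited values and 9 with all RefSeq probes averaged, against 5. The cause was not tested. Probes near background, as Aqp9, set the limit of detection. Slide and scan as a block were not run, as there was 1 of each. No paired analysis was possible because the labels give the 2 groups no shared replicate numbers.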
